A study of Mus musculus with 9 samples.

Results

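The genes described here encode the collagens, laminins and glycoproteins of the extracellular matrix that AML12 cells transcribe, and they were selected by symbol among the protein-coding genes of 2 expression tables. Symbols beginning with Col, Lama, Lamb, Lamc, Thbs or Fbln and a digit were taken, together with *Nid1*, *Nid2*, *Fn1*, *Hspg2*, *Agrn*, *Sparc*, *Tnc*, *Tnr*, *Fbn1* and *Fbn2*. The rule found 41 genes among 12814 protein-coding genes listed in either table, and all 41 are in both tables. One of them, *Col4a3bp*, encodes a ceramide transfer protein that is named for binding a collagen chain and is no matrix protein. It had means of 938.8 and 841.0 in the tables of shRNA 1 and shRNA 2 and is left out below, so 40 matrix genes remain. The annotation holds 73 protein-coding genes that fit these symbols, and the other 32 are in neither table.

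AML12 is a hepatocyte line derived from the liver of a mouse carrying a transforming growth factor alpha transgene. The cells grew in serum with insulin, transferrin, selenium and dexamethasone, and all groups were taken on day 5 of infection with lentivirus. The 3 groups were control, shRNA 1 against *Srrm2* and shRNA 2 against *Srrm2*, the gene of a scaffold protein of nuclear speckles. Each group had 3 libraries. The labels do not say whether the libraries of a group came from separate cultures. The values are the authors' deposited means of normalized counts, 1 for each gene and table. The first table pools the control and shRNA 1 libraries, and the second pools the control and shRNA 2 libraries. No value of a single library or of a single group was used, so these means carry no error and no library depth, no test was made, and the authors' own comparisons with control are not given. The means sum to 6144610 in the table of shRNA 1 and 6393460 in the table of shRNA 2. *Srrm2* itself had means of 3428 and 3759, which pool control with knockdown cells and therefore do not check the knockdown.

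The matrix is laid down outside the cell in 2 main forms. Basement membranes are thin sheets under epithelia, built from a type IV collagen network and a laminin network that nidogen and the heparan sulfate proteoglycans perlecan and agrin link together. Interstitial matrix holds fibrils of collagens such as types I, III and V, with fibronectin, tenascins, thrombospondins and fibrillin microfibrils. In the liver, hepatocytes secrete plasma fibronectin, while stellate cells and fibroblasts are the best-known source of fibrillar collagen.

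The feature that makes a chain a collagen is a run of Gly-X-Y triplets, in which glycine opens each triplet so that 3 chains can wind into a triple helix. Because glycine is encoded by codons beginning with GG, these runs can be read from the coding sequence. The first 7 triplets of the longest run are shown for 4 chains that mark the range of the results. *Col4a1* and *Col18a1* are among the most abundant collagens here, *Col12a1* is lower in the table of shRNA 2, and *Col1a1* is the main fibrillar chain of connective tissue and was near the lower limit of the tables. Capitals mark the glycine codons, and the sequences are those of the longest coding transcripts of GENCODE M1, read 5′ to 3′.
Col4a1, codons 43 to 63: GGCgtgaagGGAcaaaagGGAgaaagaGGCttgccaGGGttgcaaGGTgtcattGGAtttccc
Col18a1, codons 953 to 973: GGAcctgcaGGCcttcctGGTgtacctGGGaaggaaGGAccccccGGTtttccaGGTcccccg
Col12a1, codons 2805 to 2825: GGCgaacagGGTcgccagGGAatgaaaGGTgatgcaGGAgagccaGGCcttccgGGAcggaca
Col1a1, codons 168 to 188: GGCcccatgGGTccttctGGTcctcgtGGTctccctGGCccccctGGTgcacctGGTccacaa

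All 19 collagens of the set held at least 1 run of 5 or more triplets, and none of the other 21 matrix genes did. Of all 12504 protein-coding genes listed in both tables, 193 held such a run. The longest run of *Col1a1* had 338 triplets, and those of *Col5a1*, *Col5a2*, *Col5a3* and *Col11a2* had 337 to 339. The type IV chains were interrupted, with 16 runs in *Col4a1* and 24 in *Col4a4* and a longest run of 66 triplets in *Col4a2*. *Col18a1* and *Col15a1*, the multiplexins of the basement membrane zone, had longest runs of 30 triplets each. In *Col12a1* and *Col20a1*, which belong to the collagens that attach to fibril surfaces (FACIT), the runs covered 7.63% and 11.4% of the codons. *Col9a3*, also a FACIT, had the largest share, at 76.2%. The shortest of the 19 collagens' longest runs had 30 triplets, and with this length, taken from the members themselves, 21 of the 12504 genes had a run at least as long, which are the 19 collagens, the surfactant protein gene *Sftpd* and the scavenger receptor gene *Scara3*.

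**Figure D1:**
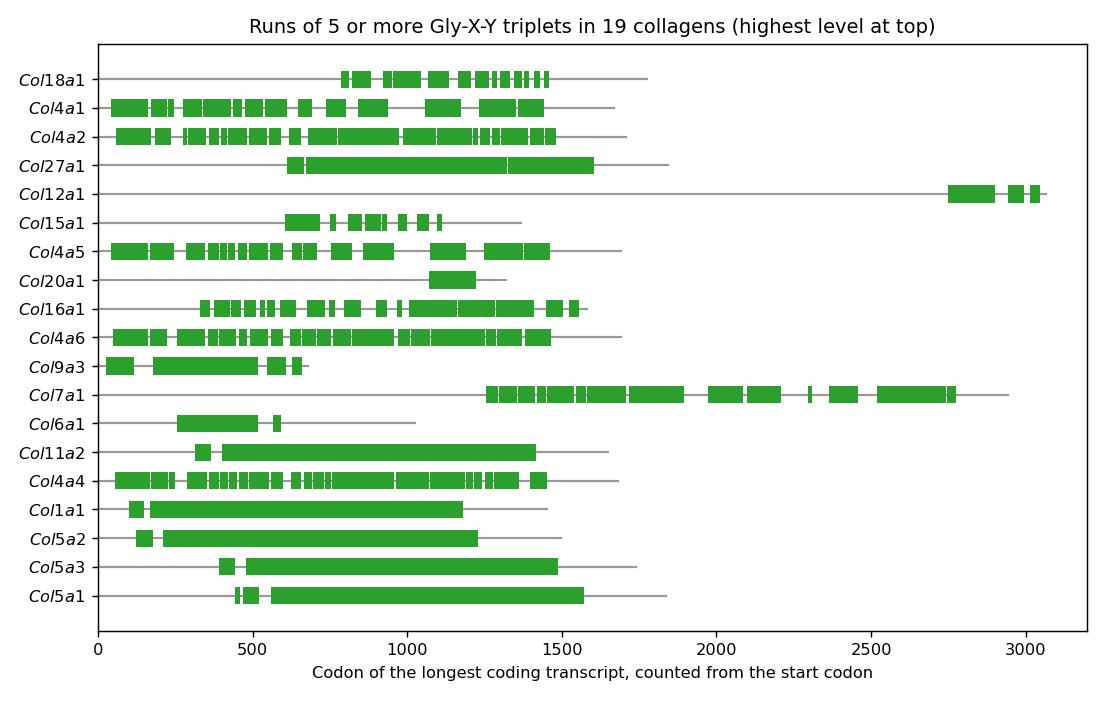
Runs of 5 or more Gly-X-Y triplets (green) along the coding sequence (grey line, in codons from the start codon) of 19 collagens, ordered from the highest level per kilobase at the top to the lowest at the bottom. The bottom rows hold *Col1a1* and the type V chains, each with 1 long run. *Col18a1*, *Col4a1* and *Col4a2* at the top have many short runs. The order by level does not follow the runs throughout. *Col27a1*, next below these top rows, has a longest run of 217 triplets, and *Col4a4*, next above *Col1a1*, has 24 runs.

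Type IV genes lie in divergent pairs, head to head on opposite strands, and the members of a pair differed in how alike their levels were. *Col4a1* and *Col4a2* encode the 2 chains of the common type IV network and overlap at their 5′ ends by 22 bases of chromosome 8 of mm9. These bases are shown because both genes begin in them.
Col4a1 and Col4a2, + strand, chr8:11312805-11312826: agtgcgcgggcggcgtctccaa
Their means were 2993 and 2615 in the table of shRNA 1 and 3715 and 2833 in the table of shRNA 2, so per kilobase of transcript *Col4a1* was 1.12 and 1.28 times *Col4a2*. *Col4a4* begins 71 bases from *Col4a3* on chromosome 1, and the bases between them are shown for comparison.
Col4a4 and Col4a3, + strand, chr1:82583425-82583495: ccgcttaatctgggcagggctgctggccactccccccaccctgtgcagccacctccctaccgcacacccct
*Col4a4* had means of 7.87 and 15.0, and *Col4a3* is in neither table. The last pair, *Col4a6* and *Col4a5*, is separated by 1308 bases of the X chromosome. *Col4a5* had means of 368.1 and 331.9 and *Col4a6* of 92.7 and 106.8, a ratio per kilobase of 4.04 in the table of shRNA 1 and 3.16 in that of shRNA 2. HTSeq counting of strand-specific libraries can keep the reads of such divergent genes apart, but the strand setting used is not given in the sources used here.

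Fibronectin dominated the matrix transcripts. *Fn1*, on chromosome 1 of mm9 from 71632094 to 71699774 on the − strand, encodes the glycoprotein that binds integrins, collagen and heparin. Its mean normalized count was 28438 in the table of shRNA 1, the 8th highest of all genes there, and 23047 in the table of shRNA 2. This was 0.463% and 0.360% of the summed means of the whole tables, and 45.2% and 39.7% of the sum over the 40 matrix genes. All 40 together made up 1.02% and 0.907% of the tables.

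Levels of different genes were compared per kilobase of the longest coding transcript, after the table of shRNA 2 had been divided by the median ratio of the tables (log2 factor 0.07). *Fn1* came first at 3421 and 2645 normalized counts per kilobase in the 2 tables. *Agrn*, the gene of agrin, followed at 632.5 and 601.9. *Col18a1*, whose C-terminal fragment is endostatin, had 574.2 and 516.5, *Sparc*, a collagen-binding matricellular protein, 565.1 and 499.8, and *Col4a1* 452.5 and 535.7. The last 3 ranges overlap between the tables, so their order is not fixed, whereas *Agrn* lay above all 3 in both. *Col4a2* (405.4 and 419.0) and *Lama5* (393.4 and 395.5) came next. *Lamb2* (368.9 and 327.5) and *Col27a1* (342.6 and 347.7) changed places between the tables, and *Fbln2* (334.3 and 303.6) was the tenth. With the union of all annotated exons as the length, *Col27a1* fell to 200.3 and 203.2 and to rank 12, and *Lamc1* entered the highest 10. *Sparc* fell to 386.0 and 341.4 and to rank 7 with that length. Of the 40 genes, the 10 highest by the longest coding transcript lay above the 90th percentile of protein-coding genes and 4 of them above the 95th. The median of the 40 was 30.4 per kilobase against 61.2 over all 12504 protein-coding genes, and 15 of the 40 were above the all-gene median.

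**Figure D2:**
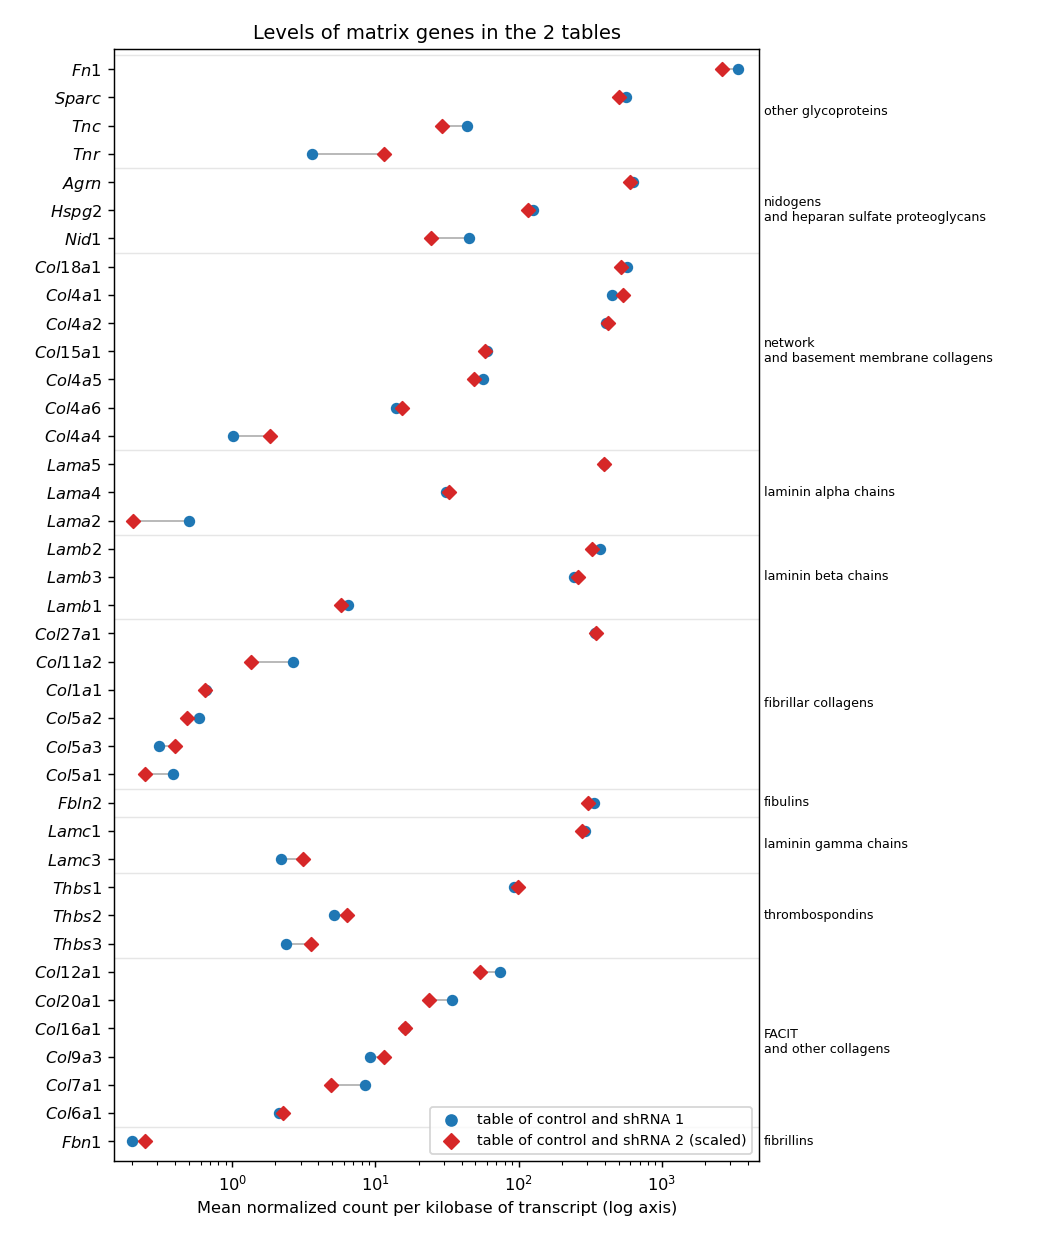
Mean normalized count per kilobase of transcript (log axis) of 39 of the 40 matrix genes, grouped by kind, in the table of control and shRNA 1 (blue circles) and the scaled table of control and shRNA 2 (red diamonds). *Fn1* lies highest, at 3421 and 2645, followed by basement membrane genes such as *Agrn* and *Col18a1*, and *Fbn1* lies lowest.

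Within the laminins, which are trimers of 1 alpha, 1 beta and 1 gamma chain, *Lama5*, *Lamb2* and *Lamc1* were the most abundant chains described. *Lama5* was 12.6 and 12.2 times *Lama4* per kilobase in the 2 tables (25.1 and 24.3 times with the union of exons as the length), and *Lama2* had means of 4.87 and 2.07. *Lamb2*, with means of 2075 and 1931, was 57.3 and 57.1 times *Lamb1* (98.2 and 97.9 times with the union of exons), the beta chain of the most widespread laminins, which had means of 37.2 and 34.8. *Lamb3* was the second beta chain, with means of 996.8 and 1112. *Lamc1*, the most widespread gamma chain, had means of 2212 and 2200. *Lamc3* was low, with means of 12.9 and 19.2. *Lama1* and *Lama3* are in neither table.

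Among the linkers of the basement membrane, *Agrn* had means of 4594 and 4582 and was 4.99 and 5.21 times *Hspg2*, the perlecan gene, per kilobase. *Hspg2* had means of 1799 and 1719. *Nid1*, which joins laminin to type IV collagen, had means of 274.4 and 156.0, and *Nid2* is not listed. Per kilobase *Nid1* was lower, at 45.4 and 24.6 against 126.8 and 115.6 for *Hspg2*. Levels of *Col4a1* per kilobase were 9.97 times those of *Nid1* in the table of shRNA 1 and 21.8 times in that of shRNA 2.

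Fibrillar collagens were low with 1 exception. *Col27a1*, a fibrillar chain best known from cartilage, had means of 2608 and 2774. The other 5 listed fibrillar chains had low means. *Col1a1* had 3.85 and 3.99, *Col5a1* 3.25 and 2.16, *Col5a2* 3.90 and 3.37, *Col5a3* 1.89 and 2.54, and *Col11a2* 16.2 and 8.62. The lowest mean listed for any gene was 1.56 in the table of shRNA 1 and 1.92 in that of shRNA 2, so the type I and V chains lay near the bottom of the tables, and *Col1a2* and *Col3a1* are not listed. *Fbn1*, the main microfibril gene, had means of 2.37 and 3.09, and *Col6a1* of 8.63 and 9.65. Among thrombospondins, *Thbs1*, an activator of latent TGF-beta, had means of 543.4 and 606.7, *Thbs2* 30.6 and 39.2, and *Thbs3* 7.53 and 11.9. *Fbln2* was the only listed gene with an Fbln symbol, with means of 1600 and 1523, and fibulins under other symbols were not looked up.

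These levels were set beside markers of the cell types a liver culture could hold. All 9 hepatocyte markers examined are listed, and 6 had means of at least 100 in both tables. Among these were *Alb* at means of 2151 and 1814 and *Hnf4a* at 1498 and 1624. The others were low, with *Tat* at 4.37 and 2.94, *Afp* at 10.8 and 8.42 and *Apoa1* at 39.4 and 38.9. Of 10 stellate cell and fibroblast markers 2 are listed, *Des* and *Col1a1*, and their summed means were 11.9 in the table of shRNA 1 and 9.21 in the scaled table of shRNA 2. None of 5 endothelial markers is listed. Of 5 macrophage markers 3 are listed, with summed means of 56.6 and 59.7. Of 4 bile duct markers 3 are listed, *Krt19* at means of 2851 and 2753, *Krt7* at 1351 and 1617 and *Sox9* at 669.7 and 750.4, while *Epcam* is not listed. In bulk RNA, fewer cells of a type and less RNA per cell cannot be told apart.

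The 2 tables were then compared to ask whether matrix genes differed between the hairpins. A difference between the table means comes from the hairpin libraries, provided that both tables hold the same 3 control libraries. The series has no other control samples, although the labels name the table of shRNA 2 for only 1 of the 3. The controls dilute such a difference, so the ratio of the hairpin group means is at least as far from 1 as the ratio of the tables. After centring on the median of the 7757 genes with means of at least 100 in both tables, 95% of these genes had log2 ratios between -0.32 and 0.28. A ratio over 1.2-fold was taken as a difference in the description below. It has no replicate check, and 1 library could set any of these means.

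Of 22 matrix genes with means of at least 100 in both tables, 5 were lower by over 1.2-fold in the table of shRNA 2, against 4.31% of all such genes, and 0 were higher, against 3.13%. These were *Nid1*, *Tnc*, *Col20a1*, *Col12a1* and *Fn1*. The median log2 ratio of the 22 was -0.10, and 15 of them lay below 0. The genes chosen share a pathway and do not vary independently, so this share is a description.

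*Nid1*, on chromosome 13 from 13529869 to 13604542, had the largest ratio of the 22, a log2 value of -0.88. Its table means were 274.4 and 156.0, and 5 of the 7757 genes lay further from 0. With shared controls, the *Nid1* mean of the shRNA 2 libraries was at most 54.3% of that of the shRNA 1 libraries, and the gap between them was 251.0 normalized counts. The shRNA 1 mean then lay between 251.0 and 548.8, and the control mean was at most 297.7. Where in these ranges the groups lay, and hence whether *Nid1* rose with 1 hairpin or fell with the other, cannot be told from the pooled means.

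*Tnc* encodes tenascin-C, a glycoprotein of wounds and developing tissue. It had table means of 309.7 and 217.2 and a log2 ratio of -0.58, at rank 38 of the 7757 by distance from 0. Its shRNA 2 mean was at most 66.9% of the shRNA 1 mean. *Col20a1* had table means of 142.9 and 103.9 and a log2 ratio of -0.53, and *Col12a1* had 855.0 and 653.1 with -0.46. Both are FACIT chains, and their shRNA 2 means were at most 69.3% and 72.9% of the shRNA 1 means. *Col12a1* lies on chromosome 9 from 79446798 to 79566638, *Col20a1* on chromosome 2 from 180721240 to 180752245 and *Tnc* on chromosome 4 from 63620819 to 63681760, so the 5 genes are on 5 chromosomes.

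*Fn1* had the smallest ratio of the 5, a log2 value of -0.37, but the largest gap in normalized counts. Its shRNA 2 mean was at most 77.3% of the shRNA 1 mean, and the gap was 12905 normalized counts. This 1 gene set most of the difference in the summed matrix transcripts. The sum over the 40 genes had a log2 ratio of -0.19 between the tables, and without *Fn1* it was -0.05.

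**Figure D3:**
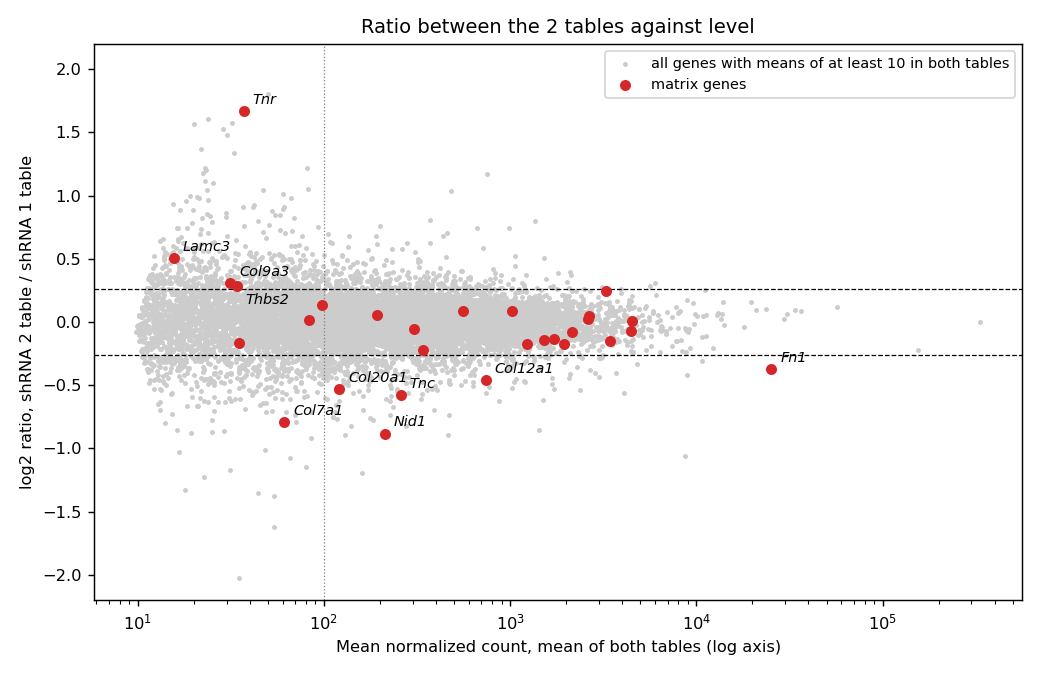
Log2 ratio of the table of shRNA 2 to that of shRNA 1, centred on the median, against the mean normalized count (log axis). Grey points are all genes with means of at least 10 in both tables (1 lies outside the axis), red points are 29 matrix genes, dashed lines mark 1.2-fold and the dotted line a mean of 100. *Nid1*, *Tnc*, *Col20a1*, *Col12a1* and *Fn1* lie below the lower line at means of 100 or more, and *Tnr* lies near the top of the low genes.

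The remaining 17 genes at this level lay within 1.2-fold. Nearest outside and inside the lower limit were *Fn1* at -0.37 and *Col4a5* at -0.22. The highest was *Col4a1* at 0.24, while its paired gene *Col4a2* had 0.05. The laminin chains had log2 ratios of 0.0078 for *Lama5*, 0.05 for *Lama4*, 0.09 for *Lamb3*, -0.08 for *Lamc1* and -0.17 for *Lamb2*. *Agrn* had -0.07 and *Hspg2* -0.13. These basement membrane genes, the type IV chains included, thus ran from -0.22 to 0.24, against -0.88 for *Nid1*. This difference was not tested. *Col27a1* had 0.02, *Thbs1* 0.09, *Col15a1* -0.05, *Fbln2* -0.14, *Col18a1* -0.15 and *Sparc* -0.18.

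A further 8 genes had means of at least 10 in both tables but not of at least 100 in both. Ratios spread more widely there, with 95% of 3694 genes between -0.51 and 0.55. Of the 8, 1 was lower by over 1.2-fold in the table of shRNA 2, against 11.5% of genes at this level, and 4 were higher, against 13.4%.

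*Tnr*, the gene of tenascin-R, which is best known from the nervous system, had the largest ratio. Its means were 17.7 and 59.2, a log2 ratio of 1.67, and 3 of the 3694 genes lay further from 0. With shared controls, the control mean was at most 35.4 and the shRNA 2 mean at least 77.5 on the scale of the table of shRNA 1. *Tnr* was thus at least 2.19-fold higher in the shRNA 2 libraries than in the control libraries, and at least 3.19-fold higher than in the shRNA 1 libraries. Among the 30 genes with means of at least 10, only *Tnr* had a direction against control set by the pooled means. This holds only if the controls are shared, and it has no replicate check.

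*Col7a1* had a ratio in the other direction. It encodes the anchoring fibril collagen that ties epidermal basement membrane to dermis, and its means were 77.8 and 47.2, a log2 ratio of -0.79. Its shRNA 2 mean was at most 57.8% of the shRNA 1 mean. An annotated gene on the same strand overlaps *Col7a1*, as is also so for *Col27a1*, *Col4a5* and *Col4a6*, and reads shared with it may have been left uncounted. On the other strand, an annotated gene overlaps *Fn1*, *Tnc* and *Col12a1* but not *Nid1* or *Col20a1*. Shared reads there could be lost too if strand was ignored in counting. *Lamc3* had a log2 ratio of 0.51, *Col9a3* 0.31 and *Thbs2* 0.29, and *Col4a6* (0.14), *Col16a1* (0.02) and *Lamb1* (-0.17) lay within 1.2-fold. The last 10 matrix genes had a mean below 10 in at least 1 table, from 1.89 to 16.2, and ratios at such levels are not described.

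**Figure D4:**
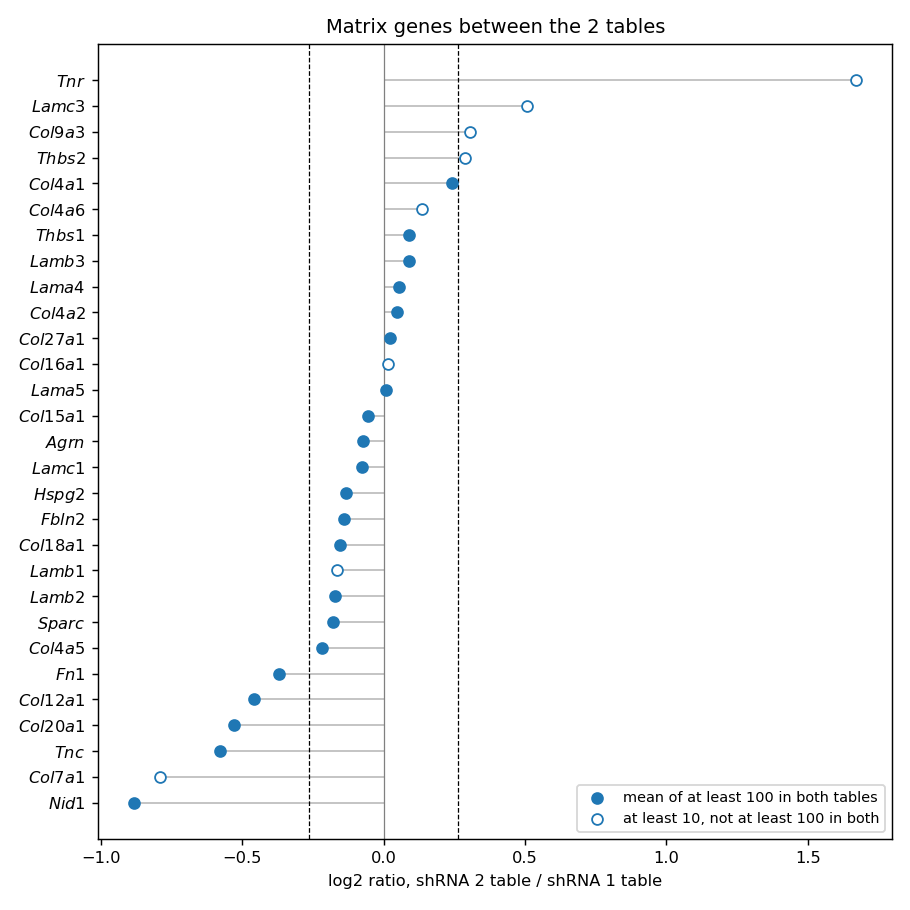
Centred log2 ratio of the table of shRNA 2 to that of shRNA 1 for 29 of the 30 matrix genes with means of at least 10 in both tables (filled, at least 100 in both; open, lower), with dashed lines at 1.2-fold. *Nid1* is lowest at -0.88 and *Tnr* highest at 1.67, and most laminin chains lie near 0.

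Collagen chains are hydroxylated, glycosylated, trimmed and crosslinked by a set of enzymes and chaperones, and 31 such genes were examined. The symbol *Mia3* is not in the annotation, so that gene could not be looked up. Of the 31 genes 23 are listed, and 15 had means of at least 100 in both tables. Several of the 15 were abundant. *P4hb*, the shared subunit of prolyl 4-hydroxylase that is also a disulfide isomerase, had means of 4711 and 4439. *Serpinh1*, the collagen chaperone, had 931.2 and 1053, *Glt25d1*, a collagen galactosyltransferase, 1518 and 1504, and *Bmp1*, the procollagen C-proteinase, 1377 and 1567. The crosslinking oxidases were represented by *Loxl2*, with means of 1261 and 1193, and *Loxl4*, with 944.8 and 955.5, whereas *Lox* and *Loxl1* are not listed. Between the tables, 1 of the 15 was lower by over 1.2-fold and 0 were higher, against the same 4.31% and 3.13%. It was the lysyl hydroxylase gene *Plod1*, with means of 198.9 and 166.4 and a log2 ratio of -0.33. The median of the 15 was -0.05. Among listed genes with means of at least 10 but not of at least 100 in both tables, only *Plod2* was lower by over 1.2-fold. It had means of 110.0 and 93.7 and a log2 ratio of -0.30. *Leprel4* was higher, with 14.9 and 20.7 and 0.41. The others at that level, *Leprel1*, *Crtap*, *Pcolce2* and *Loxl3*, lay within 1.2-fold. Of all genes at that level, 11.5% were lower and 13.4% higher by over 1.2-fold.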

How the data were processed

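RNA was sequenced from 9 libraries of AML12 cells, 3 per group by the sample titles. According to the methods and the submitters' processing notes, the authors aligned the reads to mm9 using TopHat2 and retained unique, properly paired alignments. Pairs per GENCODE M1 gene were counted using HTSeq by the authors, who analysed each hairpin against control in DESeq2 (version 1.8.2). The signal used is the authors' deposited mean of counts divided by size factors, pooled over the control and 1 hairpin group. The tables also hold the authors' fold changes, standard errors, test statistics, p-values and adjusted p-values, which were not used.

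All gene identifiers matched GENCODE M1 on NCBIM37, the assembly of mm9, from which symbols, lengths, coordinates and sequences were taken. Tables normalized separately were scaled by the median ratio of genes with means of at least 100 in both. Members and lists were chosen with earlier results of these data known. Genes named are the members, with values by level and ratio as described. Of the 40 members, 1 is counted but not reported here. The scaling and limits were run on simulated tables built with the same controls in both. That run therefore does not test whether the deposited tables share their controls. Alternatives were other scalings, minimum means, folds and lengths. Computations used Python 3.11.15 with numpy 2.4.6, pandas 2.3.3 and, for plots, matplotlib 3.10.9.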

Additional observations from a re-analysis of the deposited data

How the results depend on the processing

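The main count was 5 matrix genes past 1.2-fold between the tables, 5 lower and 0 higher in the table of shRNA 2. Scaling both tables to the same sum or centring on all genes kept these counts, and without centring *Col4a1* was added as 1 higher gene. A minimum mean of 10 gave 10 genes (6 lower, 4 higher), no minimum gave 18 (10 lower, 8 higher), and the band of means from 10 to below 100 in a table, added after the data were seen, gave 5 (1 lower, 4 higher). A minimum of 100 on the mean of both tables, also added later, gave 5. A fold of 1.5 left 1 gene, *Nid1*, and a fold of 1.1 gave 11 (10 lower, 1 higher). The count thus depends on the fold and the minimum. Of all genes, 4.31% were lower and 3.13% higher by over 1.2-fold at means of at least 100. In the band these shares were 11.5% and 13.4%. Shares of all genes for the other minimum means and folds are not given, so those counts are not a result about matrix genes. All 10 genes past 1.2-fold at means of at least 10 kept their direction and their side of that fold under the 3 other scalings. A minimum of 50 or 200 gave 24 or 18 genes in place of 22. The median level per kilobase was 30.4, and 27.7 with all exons as the length or 25.4 in the table of shRNA 2, with 9 and 10 of the 10 highest genes shared. With all exons as the length, *Col27a1* left the highest 10 and *Lamc1* entered. No paired analysis was possible because no value of a single library was used, and for the same reason no replicate was left out. Depth per library is unknown, so how far counting error limits the low genes cannot be given.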
